A study of Mus musculus with 8 samples.

Results

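Lysosomal hydrolases and the structural proteins of the lysosomal membrane were examined in mouse liver. The 45 genes were taken as a fixed list of names, which was drawn up with earlier results of these data known. They comprised soluble enzymes of protein, glycan, lipid and ester breakdown, their activator proteins, and 4 membrane proteins. All 45 were among the 14506 genes listed for the livers, and 44 had a mean of at least 10 normalized read counts and were tested. The 1 gene below this level was *Gla*.

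Livers came from 4 Rragc S74N/+ and 4 Rragc +/+ mice. *Rragc* encodes RagC, a GTPase of the lysosome surface that signals amino acid supply to mTORC1, and S74N is a serine-to-asparagine substitution that was knocked in on 1 allele with CRISPR, so that the mutant mice carried it in all tissues beside a normal allele. The mice were of the C57BL/6 strain, and their sex is not in the labels. Replicates 1 to 3 of Rragc +/+ were 3 months old and replicate 4 was 2.5 months old. Replicates 1 and 2 of Rragc S74N/+ were 3 months old, replicate 3 was 2.5 months old and replicate 4 was 2 months old. Replicate numbers only name a liver, no treatment is given, and whole tissue was used, so fewer cells of a type and less RNA per cell cannot be told apart. Between 4313076 and 6632108 reads per liver fell in listed genes, and libraries were made from the 3′ ends of messenger RNAs, so that normalized counts of different genes compare without a length correction.

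Lysosomes are acidic organelles in which proteins, glycans, lipids and nucleic acids are taken apart by hydrolases that work at low pH. Most of these enzymes are made in the endoplasmic reticulum, marked with mannose 6-phosphate in the Golgi and carried to the lysosome by mannose 6-phosphate receptors, while LAMP proteins line the inner face of its membrane. Many of the genes are targets of the factors TFEB, TFE3 and MITF, which mTORC1 keeps in the cytoplasm when amino acids are plentiful and which bind an E-box known as the CLEAR element. Inherited loss of single enzymes gives storage diseases, several of which enlarge the liver.

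The E-box letters were looked for in promoters, since the genes share a class of regulator. RefSeq windows on GRCm38.p6, each 300 bases long with 250 before and 50 after a start, were matched for 39 of the 45 genes. CACGTG, which reads alike on both strands, stood in a window of 12 of the 39 genes (30.8%), against 8.09% of all genes with a window and 11.5% of those listed in liver. The longer TCACGTGA, which contains CACGTG, stood in 3 of 39 (7.69%), against 1.12% and 2.17%. The 3 genes were *Ctsa*, *Ctsd* and *Gla*, all on the list of TFEB targets that the study used for the CLEAR network. That network bears the name of the E-box searched for, so this overlap is not separate evidence. Windows of the 3 genes are shown because they hold the letters searched for, 5′ to 3′ on the strand of the gene, with TCACGTGA in capitals.
Ctsa, chr2:164833523-164833822, forward strand: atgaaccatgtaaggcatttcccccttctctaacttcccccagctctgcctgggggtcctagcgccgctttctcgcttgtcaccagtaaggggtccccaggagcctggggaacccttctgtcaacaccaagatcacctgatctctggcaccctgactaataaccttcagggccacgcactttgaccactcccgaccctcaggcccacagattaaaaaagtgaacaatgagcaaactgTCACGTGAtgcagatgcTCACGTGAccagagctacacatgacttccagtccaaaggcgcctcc
Ctsd, chr7:142387778-142388077, reverse strand: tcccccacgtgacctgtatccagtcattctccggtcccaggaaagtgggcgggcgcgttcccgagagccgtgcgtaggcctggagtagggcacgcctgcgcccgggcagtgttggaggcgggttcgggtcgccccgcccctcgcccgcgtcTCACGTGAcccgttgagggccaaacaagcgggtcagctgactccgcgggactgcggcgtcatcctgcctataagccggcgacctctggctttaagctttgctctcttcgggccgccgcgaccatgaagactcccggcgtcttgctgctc
Gla, chrX:134600956-134601255, reverse strand: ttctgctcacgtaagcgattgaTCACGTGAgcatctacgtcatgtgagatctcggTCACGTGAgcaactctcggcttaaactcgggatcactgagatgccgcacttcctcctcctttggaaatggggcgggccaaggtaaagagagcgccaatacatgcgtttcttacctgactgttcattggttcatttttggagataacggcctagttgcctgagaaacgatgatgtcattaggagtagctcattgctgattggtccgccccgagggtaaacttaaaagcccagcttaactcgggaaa
*Lamp1*, the most abundant of the genes, held CACGTG 4 times and was added after the search, with CACGTG in capitals.
Lamp1, chr8:13158911-13159210, forward strand: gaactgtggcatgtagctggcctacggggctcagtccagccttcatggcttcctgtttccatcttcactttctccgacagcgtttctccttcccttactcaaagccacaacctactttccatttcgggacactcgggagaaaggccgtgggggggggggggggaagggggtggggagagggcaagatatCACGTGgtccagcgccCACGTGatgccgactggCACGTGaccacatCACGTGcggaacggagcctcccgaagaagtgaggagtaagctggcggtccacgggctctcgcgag
Counted from 0 at the first base of the transcript, the copies in *Lamp1* began at -61, -45, -28 and -15. In *Ctsa* those of TCACGTGA began at -13 and 4, in *Ctsd* at -99, and in *Gla* at -228 and -195. *Ctsa* had another window, chr2:164832622-164832921, without either motif. A match describes letters in the window and is not a measured binding site.

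The genes spanned a wide range of levels in liver, and most were abundant. The mean over the 8 livers ran from 9.83 normalized counts for *Gla* to 4414 for *Lamp1*, with a median of 197, where the median over all listed genes was 45.1. Of the 45 genes, 35 lay above that median. The 7 genes above 1000 were *Lamp1* (4414), *Ctsh* (2488), *Ctsd* (2424), *Psap* (2295), *Lamp2* (2048), *Ctsb* (1226) and *Lipa* (1126). *Ctsh*, *Ctsd*, *Psap* and *Lamp2* were closer to each other than the spread between livers, since each ranged over at least 1.86-fold. The 10 genes under 50 were *Cd63*, *Glb1*, *Lgmn*, *Arsb*, *Manba*, *Galns*, *Sgsh*, *Galc*, *Idua* and *Gla*, and few reads stood behind their values. *Gla*, whose product removes terminal galactose from glycolipids, had 2 to 21 reads per liver. Its normalized counts were 12.1, 10.3, 21.2 and 9.34 in Rragc +/+ and 1.84, 4.44, 2.23 and 17.1 in the Rragc S74N/+ livers, in replicate order. The groups overlapped through Rragc S74N/+ replicate 4, and the gene was too low to be tested.

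**Figure D1:**
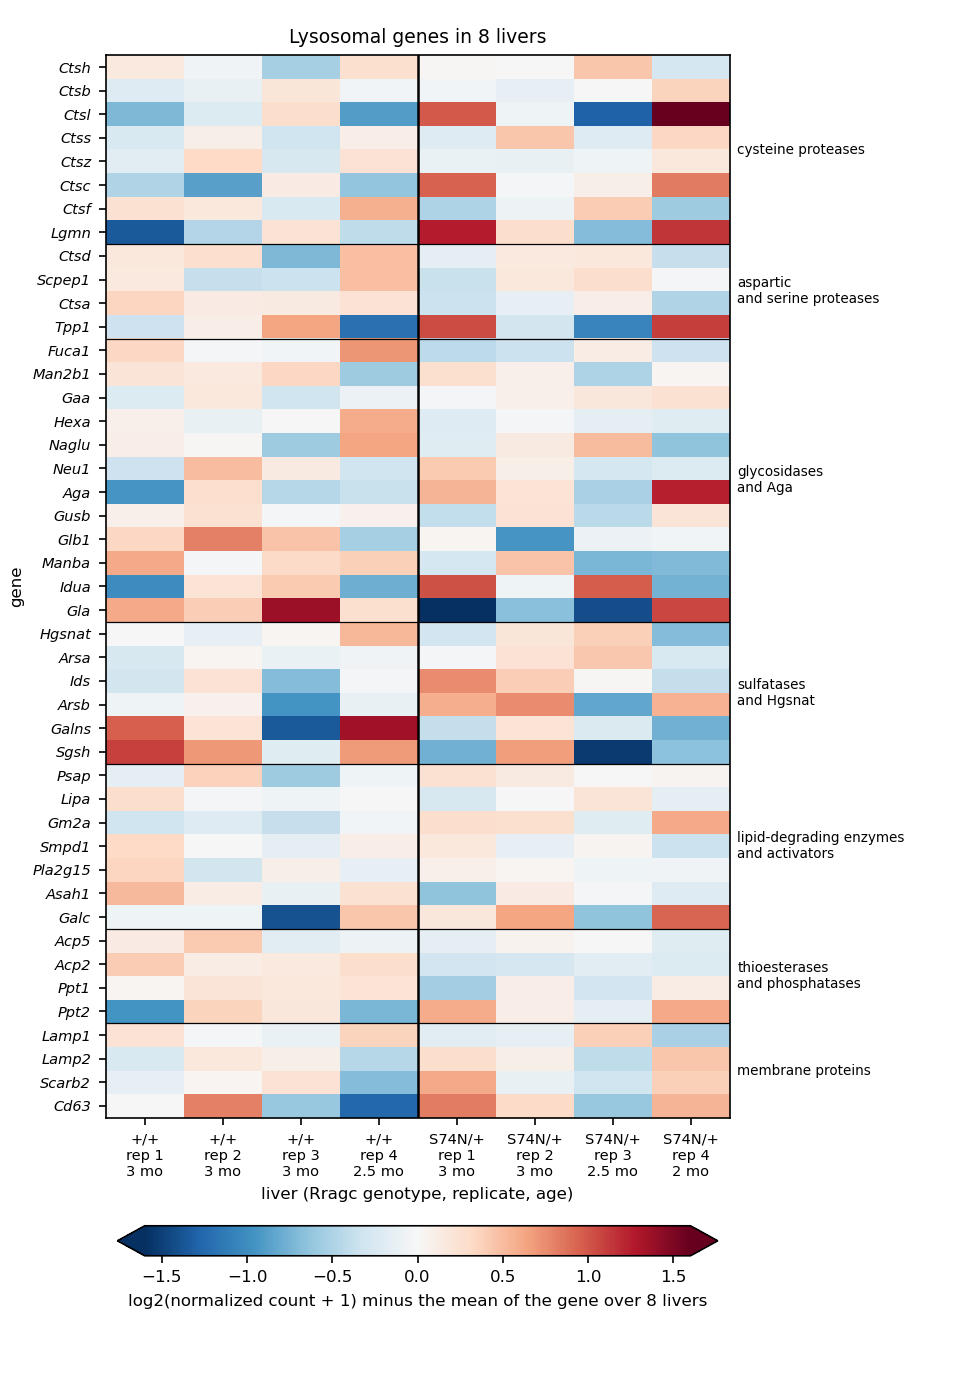
Log2(normalized count + 1) of each of the 45 lysosomal genes (rows, grouped by role) in each of 8 livers (columns, with genotype, replicate and age), as the difference from the mean of the gene over the 8 livers. Colours beyond 1.6 in size are clipped. The 8 columns differ from each other within a genotype, and no role group is of 1 colour on each side of the line between the genotypes.

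To ask whether liver lysosomal genes differed between Rragc S74N/+ and Rragc +/+ mice, the 44 genes were read from a limma fit across all 11174 tested genes. No lysosomal gene passed an adjusted p of 0.05, where 1 gene of all those tested did (0.00895%). The smallest adjusted p of a lysosomal gene was 0.846 with limma, 0.812 with edgeR and 0.442 with DESeq2, so these count tests also called 0 of the 44. At an unadjusted p under 0.05, 2 of 44 were higher in Rragc S74N/+ livers (*Ctsc* and *Gm2a*), against 2.37% of all tested genes, and 2 were lower (*Ctsa* and *Acp2*), against 2.80%. edgeR and DESeq2 each put 6 of the 44 (13.6%) under that unadjusted threshold, in either direction, against 5.53% and 6.01% of all tested genes. In 0 of 44 genes did all 4 Rragc S74N/+ livers lie above all 4 Rragc +/+ livers (1.30% of all tested genes), and in 2 of 44 they all lay below (1.64% of all). Those 2 genes were again *Ctsa* and *Acp2*. Fitted differences were positive for 22 genes and negative for 22, with a median log2 fold change of -0.001 beside 0.012 over all tested genes.

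**Figure D2:**
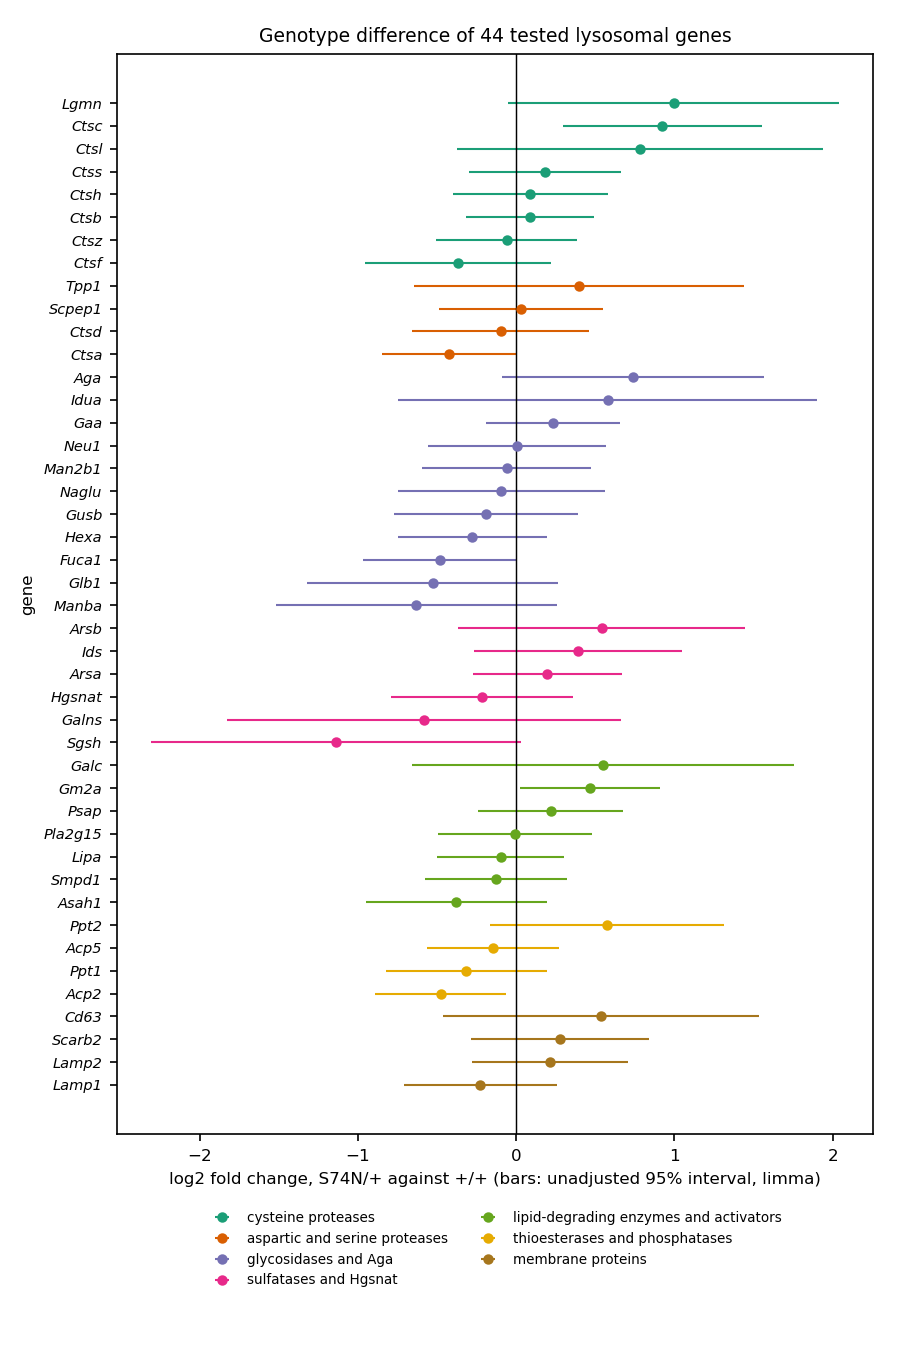
Log2 fold change between Rragc S74N/+ and Rragc +/+ livers (n = 4 each) for the 44 tested lysosomal genes, by role (colours), with unadjusted 95% intervals from limma as bars. Points lie on both sides of 0 in every role group, and the intervals of *Ctsc* and *Gm2a* lie above 0 while those of *Acp2* and *Ctsa* lie below it.

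The mean log2 level of the 44 tested genes was 7.53, 7.66, 7.41 and 7.55 in Rragc +/+ and 7.66, 7.64, 7.41 and 7.62 in the Rragc S74N/+ livers, in replicate order. The lowest livers were Rragc +/+ replicate 3, which had the fewest reads, and Rragc S74N/+ replicate 3, and the groups overlapped over almost their whole range. Group means were 7.54 ± 0.0999 and 7.58 ± 0.119 (SD, n = 4 each), and the difference of 0.047 was smaller than either SD. It was 0.106 without Rragc S74N/+ replicate 3, 0.119 in 3-month-old mice alone and 0.006 without Rragc +/+ replicate 3. The share of a liver's reads that fell in the 45 genes was 0.403%, 0.435%, 0.346% and 0.442% in Rragc +/+ and 0.431%, 0.421%, 0.448% and 0.457% in Rragc S74N/+. Half-widths of the 95% intervals ran from 0.40 to 1.32 on the log2 scale with a median of 0.56. For 29 of 44 genes the unadjusted interval lay between -1 and 1, and for the other 15, among them all 9 tested genes with a mean under 50, it reached a difference of 1 on the log2 scale or more.

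**Figure D3:**
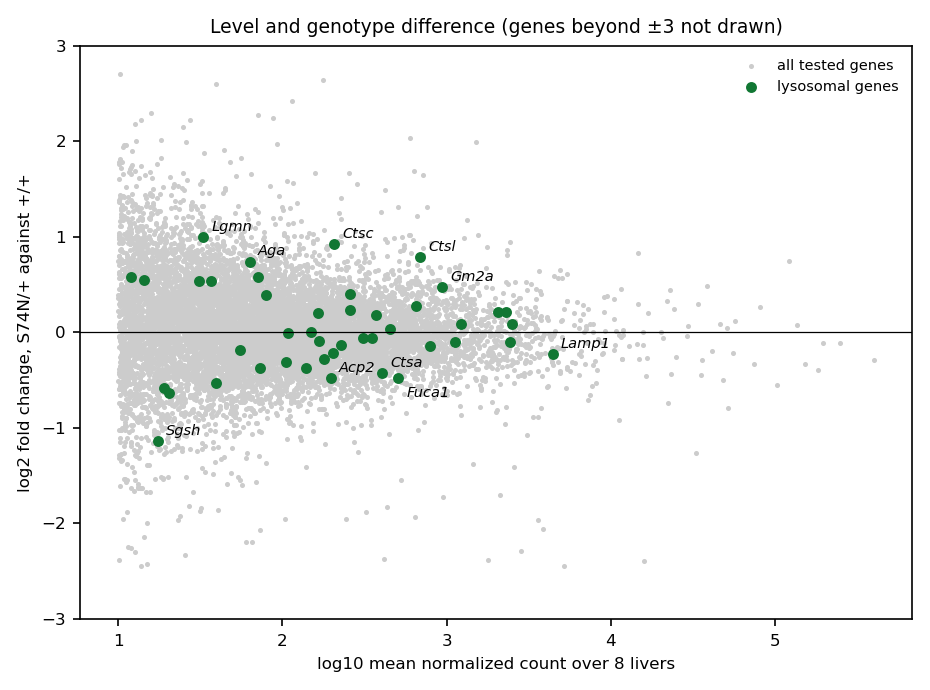
Log2 fold change between Rragc S74N/+ and Rragc +/+ livers against the log10 mean normalized count over 8 livers, for the tested lysosomal genes (green) and all tested genes (grey). The 44 green points lie within the grey cloud on both sides of 0, with *Sgsh* at -1.14 and *Lgmn* at 0.99 as the outermost.

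Cysteine proteases, which cut internal or terminal peptide bonds of proteins delivered to the lysosome, had 6 positive and 2 negative fitted differences and a median log2 fold change of 0.13. *Ctsc*, chr7:88278085-88310888 on the plus strand of GRCm38, encodes the dipeptidyl peptidase that activates granule serine proteases of leukocytes. It was at 134, 103, 206.5 and 120.5 normalized counts in Rragc +/+ and at 364, 185, 201 and 334.5 in the Rragc S74N/+ livers, in replicate order. All 4 Rragc S74N/+ livers lay above 3 of the Rragc +/+ livers, and Rragc +/+ replicate 3 lay above 2 of them. The means were 141 ± 45.5 and 271 ± 91.2 (SD, n = 4 each). Its log2 fold change was 0.92 ± 0.29 (SE, limma unadjusted p = 0.00729, adjusted p = 0.846). At 2.5 months, with 1 mouse of each genotype, its level was 120.5 in Rragc +/+ and 201 in Rragc S74N/+.

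*Lgmn*, the asparaginyl endopeptidase legumain and a low gene with 11 to 76 reads per liver, was at 10.2, 19.6, 32.5 and 20.6 in Rragc +/+ and 67.0, 33.8, 16.7 and 62.0 in Rragc S74N/+. Rragc S74N/+ replicates 1 and 4 stood at about the same high level and replicate 3 fell among the Rragc +/+ livers. The log2 fold change was 0.99 ± 0.48 (SE, limma adjusted p = 0.846). *Ctsl*, an endopeptidase chosen here after its values were seen, had the same pair of high livers, with 318, 451, 637 and 281 in Rragc +/+ and 1035, 500.4, 214 and 2040 in Rragc S74N/+. Its highest liver was 9.54-fold above its lowest, both were Rragc S74N/+, and its log2 fold change of 0.78 had a standard error of 0.54 (limma adjusted p = 0.846). An exon of *Gm49230* overlaps it on the same strand. *Ctsh*, an aminopeptidase and the most abundant of these proteases, was at 2713, 2352, 1692 and 2907 in Rragc +/+ and 2469, 2436, 3331 and 2001 in Rragc S74N/+, with groups that overlapped fully and a log2 fold change of 0.09 (SE 0.23). *Ctsf*, at 159, 151.5, 113 and 201 against 95.5, 127, 178 and 90.5, had the largest negative value of the family, -0.37 ± 0.27 (SE, limma adjusted p = 0.846). *Ctsb*, *Ctss* and *Ctsz* had values between -0.06 and 0.18.

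Several cysteine proteases are abundant in macrophages, and Kupffer cell genes were therefore read beside them. The cysteine proteases *Ctss* and *Lgmn* and the phosphatase *Acp5*, taken as rich in macrophages, had log2 fold changes of 0.18, 0.99 and -0.15. The summed level of these 3 genes was 1023 to 1465 in Rragc +/+ and 1095 to 1346 in Rragc S74N/+ livers. Most of that sum was *Acp5*, at means of 839 and 750, and *Lgmn* added little, at 20.8 and 44.9. Of 13 Kupffer cell and macrophage markers, all tested, 8 had positive and 5 negative values, with 4 (*Marco*, *Adgre1*, *C1qc* and *Lyz2*) higher and *Cd163* lower in the mutant livers at unadjusted p values under 0.05. Of all tested genes, 2.37% were higher and 2.80% lower at that threshold. Limma and edgeR called 0 of the 13 and DESeq2 called 1. Their summed level was 3354 to 5001 in Rragc +/+ and 3409 to 5634 in Rragc S74N/+ livers. *Csf1r*, *C1qa* and *Cd5l*, at group means of 772 to 1176, made up most of that sum, so it says little about lower markers. *Marco* was at 20.5 to 25.5 in Rragc +/+ and 37.9 to 125 in Rragc S74N/+ livers, without overlap. Its log2 fold change was 1.82 (limma unadjusted p = 0.000276, adjusted p = 0.846). *Cd163* was at 43.0 to 117.5 and 18.9 to 42.4, also without overlap and in the other direction (-0.97). The part of these cells in the values of *Ctsc* and *Lgmn* was not tested.

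**Figure D4:**
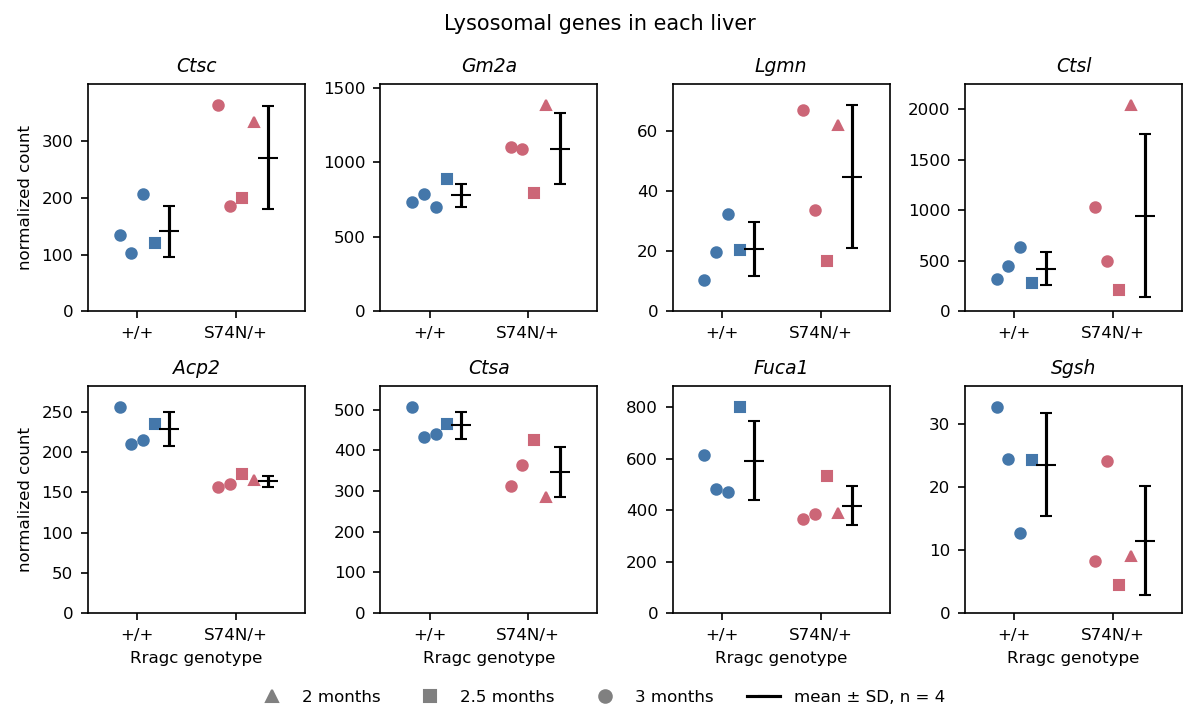
Normalized counts of 8 lysosomal genes in each liver (points, blue Rragc +/+ and red Rragc S74N/+, shape by age) with mean ± SD of 4 livers (black). The genotypes separate only for *Acp2* and *Ctsa*, while for *Ctsc*, *Gm2a*, *Lgmn* and *Ctsl* the Rragc S74N/+ livers are more spread than the Rragc +/+ livers.

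Aspartic and serine proteases had 2 positive and 2 negative values, with a median log2 fold change of -0.03. *Ctsa*, chr2:164832873-164841032 on the plus strand, encodes protective protein cathepsin A, a carboxypeptidase that also holds β-galactosidase and neuraminidase 1 in a stable complex. It was at 507, 434, 439.9 and 466 normalized counts in Rragc +/+ and 313, 364, 427 and 285 in the Rragc S74N/+ livers, in replicate order. The groups did not overlap, although Rragc S74N/+ replicate 3 was close to the lowest Rragc +/+ livers. The means were 462 ± 33.3 and 347 ± 62.5 (SD, n = 4 each), and the log2 fold change was -0.42 ± 0.20 (SE, limma unadjusted p = 0.0489, adjusted p = 0.846). At 2.5 months the levels were 466 and 427. The partners of its complex, *Glb1* and *Neu1*, had log2 fold changes of -0.53 (SE 0.37) and 0.01 (SE 0.26).

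*Ctsd*, the main lysosomal aspartic protease, was at 2645, 2833, 1424 and 3285 in Rragc +/+ and 2110, 2613, 2652 and 1829 in Rragc S74N/+. The lowest liver was Rragc +/+ replicate 3, the Rragc S74N/+ livers lay inside the Rragc +/+ range, and the log2 fold change was -0.10 ± 0.26 (SE). *Tpp1*, a tripeptidyl peptidase, had 175, 239, 342 and 96.2 in Rragc +/+ and 457, 180.4, 106 and 477 in Rragc S74N/+, where replicates 1 and 4 again stood high. The genotypes overlapped and its log2 fold change was 0.40 ± 0.48 (SE).

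Glycosidases, which trim sugars from glycoproteins, glycolipids and glycosaminoglycans, were taken with *Aga*, which splits the bond between asparagine and the glycan. Of the 11 tested, 4 had positive and 7 negative values, with a median log2 fold change of -0.10, and none had an unadjusted limma p under 0.05. *Fuca1*, which removes fucose and was the most abundant of them, was at 613, 481, 472.5 and 802 in Rragc +/+ and 365, 387, 533 and 388 in Rragc S74N/+. Rragc S74N/+ replicate 3, a 2.5-month-old liver, lay among the Rragc +/+ livers, and the Rragc +/+ liver of the same age was the highest of all 8. The log2 fold change was -0.48 ± 0.22 (SE, limma unadjusted p = 0.051, adjusted p = 0.846). *Aga* was at 28.9, 68.3, 41.0 and 43.9 in Rragc +/+ and 82.6, 65.8, 39.0 and 135 in Rragc S74N/+, with replicate 4 the highest and a log2 fold change of 0.74 (SE 0.38). *Manba*, the β-mannosidase, was at 29.8, 18.7, 24.1 and 25.2 against 15.6, 26.7, 11.1 and 11.4, with 10 to 32 reads per liver and a log2 fold change of -0.63 (SE 0.41). *Gaa*, which degrades glycogen in the lysosome, was close to even at 239 ± 36.4 and 279 ± 23.3 (SD, n = 4 each). *Hexa*, *Gusb*, *Naglu*, *Man2b1* and *Idua* had values between -0.28 and 0.58, and *Idua* had only 5 to 24 reads per liver.

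The sulfatases and *Hgsnat*, which take part in the stepwise breakdown of heparan, dermatan and keratan sulfate and of sulfatide, had 3 positive and 3 negative values and a median of -0.01. *Sgsh*, the heparan N-sulfatase, had the largest difference in size of all 44 genes and one of the lowest levels. Its normalized counts were 32.6, 24.3, 12.7 and 24.3 in Rragc +/+ and 8.26, 24.0, 4.46 and 8.97 in Rragc S74N/+, from 4 to 35 reads per liver. The groups overlapped, with Rragc S74N/+ replicate 2 inside the Rragc +/+ range. The log2 fold change was -1.14 ± 0.54 (SE) and its interval ran from -2.31 to 0.03 (limma unadjusted p = 0.0552, adjusted p = 0.846). *Arsb*, arylsulfatase B, was at 27.0, 29.9, 14.2 and 26.2 in Rragc +/+ and 43.1, 48.9, 15.6 and 42.4 in Rragc S74N/+, and its 0.54 had a standard error of 0.42. *Hgsnat*, the membrane acetyltransferase of heparan sulfate breakdown and the most abundant of the group, was at 197, 180.5, 202 and 285 against 159, 227, 256 and 122, with a log2 fold change of -0.22 (SE 0.27). In both genotypes its 2.5-month-old liver was the highest.

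Among lipid-degrading enzymes and their activators, 3 of 7 values were positive and 4 negative, with a median of -0.01. *Gm2a*, chr11:55098115-55113029 on the plus strand, encodes the activator that lifts ganglioside GM2 from membranes for hexosaminidase A. It was at 732, 789, 703 and 885 normalized counts in Rragc +/+ and 1104, 1089, 793 and 1384 in the Rragc S74N/+ livers, in replicate order. In 3 of 4 Rragc S74N/+ livers it lay above every Rragc +/+ liver. In the 2.5-month-old pair the order was the opposite, at 885 in Rragc +/+ and 793 in Rragc S74N/+. The means were 777 ± 80.2 and 1093 ± 241 (SD, n = 4 each), and the log2 fold change was 0.47 ± 0.21 (SE, limma unadjusted p = 0.0395, adjusted p = 0.846). *Hexa*, which encodes the enzyme's α subunit, had a value of -0.28 (SE 0.22).

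*Psap*, the precursor of the saposins that help degrade sphingolipids, was at 2024, 2905, 1518 and 2154 in Rragc +/+ and 2666, 2497, 2270 and 2323 in Rragc S74N/+. The Rragc S74N/+ livers lay within the Rragc +/+ range, and the log2 fold change was 0.22 ± 0.21 (SE). *Asah1*, acid ceramidase, was at 102, 76.7, 65.1 and 84.1 against 45.0, 77.3, 69.1 and 61.2, with a log2 fold change of -0.38 (SE 0.27). *Galc*, which removes galactose from galactosylceramide, was at 12.1, 12.2, 4.24 and 17.8 against 14.7, 20.4, 7.80 and 25.3 from 3 to 31 reads per liver, with 0.55 (SE 0.56). *Lipa*, the acid lipase that releases cholesterol and fatty acids from lipoprotein lipids, varied least of all the genes. Its highest liver was 1.46-fold above its lowest, and its log2 fold change of -0.10 had an interval from -0.50 to 0.30. *Smpd1* and *Pla2g15*, for sphingomyelin and phospholipids, were at -0.13 and -0.01.

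Thioesterases and phosphatases had 1 positive and 3 negative values and a median of -0.23. *Acp2*, chr2:91202885-91214098 on the plus strand, encodes lysosomal acid phosphatase 2, which is delivered to the lysosome as a membrane protein. It was at 256, 210.4, 215 and 235 normalized counts in Rragc +/+ and 157, 161, 173 and 166 in the Rragc S74N/+ livers, in replicate order. The groups did not overlap, and the same order held in the 2.5-month-old pair, at 235 and 173. The means were 229 ± 21.1 and 164 ± 6.77 (SD, n = 4 each), and the log2 fold change was -0.48 ± 0.19 (SE) and its interval ran from -0.89 to -0.06 (limma unadjusted p = 0.0271, adjusted p = 0.846). *Acp5*, the tartrate-resistant phosphatase of macrophages and osteoclasts, was at 864, 1056, 696 and 741 against 711.5, 816, 781 and 690.1, and its groups overlapped (-0.15, SE 0.19). *Ppt2*, a palmitoyl-protein thioesterase that overlaps an exon of *Gm20460* on the same strand, was at 33.6, 85.1, 75.0 and 39.2 against 100.1, 71.1, 59.1 and 101, with a log2 fold change of 0.57 (SE 0.34). *Ppt1*, its relative, was at -0.32 (SE 0.24).

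The 4 membrane proteins had 3 positive values and 1 negative. *Lamp1*, the most abundant of the 45 genes, was at 5066, 4247, 4034 and 5548 normalized counts in Rragc +/+ and 3808, 3958, 5645 and 3009 in the Rragc S74N/+ livers, in replicate order. The 2.5-month-old Rragc S74N/+ liver was the highest of all and the 2-month-old liver the lowest. The log2 fold change was -0.23 ± 0.22 (SE, limma adjusted p = 0.852). Its relative *Lamp2*, which also serves chaperone-mediated autophagy, was at 1889 ± 373 and 2206 ± 515 (SD, n = 4 each), with a log2 fold change of 0.21 (SE 0.23). *Cd63*, a tetraspanin of late endosomes and exosomes, was at 32.6, 58.0, 21.2 and 13.1 against 58.8, 40.9, 21.2 and 48.1, with 0.53 (SE 0.46). *Scarb2*, the receptor that carries β-glucocerebrosidase to the lysosome, was at 0.28 (SE 0.26).

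The genes also varied between single livers. The ratio of the highest to the lowest liver ran from 1.46 for *Lipa* to 11.6 for *Gla*, was at least 3 for 14 of the 45 genes and under 2 for 22. Over the 44 tested genes the median SD between livers was 0.34 on the log2 scale, beside 0.46 over all tested genes. Rragc +/+ replicate 3 was the lowest liver for 11 of 44 genes, where it was so for 11.5% of all tested genes, and it was the highest for 1. Rragc +/+ replicate 4 and Rragc S74N/+ replicate 4 were each the highest for 9 (20.5%), against 16.5% and 17.0% of all tested genes. Rragc S74N/+ replicate 2 was the least extreme, as it was over all genes, and was the highest for 2 and the lowest for 1.

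The mice of 2.5 months were 1 of each genotype, and for some genes both of their livers lay beyond all the others. Both 2.5-month-old livers lay above the 6 others for *Ctsf*, *Ctsh*, *Hgsnat*, *Naglu*, *Scpep1* and *Lamp1*, which was 6 of 44 genes (13.6%) against 10.3% of all tested genes. Both lay below the 6 others for *Ctsl*, *Tpp1*, *Man2b1*, *Lamp2*, *Cd63* and *Scarb2*, again 13.6%, against 11.9% of all. Both shares were near those of all tested genes, so the pattern was not particular to the lysosomal genes. *Lamp1* and *Lamp2* thus stood at opposite ends in these livers. *Lamp1* was at 5548 and 5645 there and at 3009 to 5066 elsewhere, while *Lamp2* was at 1463 and 1517 there and at 1698 to 2717 elsewhere. The 2-month-old liver, the only one of that age and Rragc S74N/+, was the lowest for *Lamp1* (3009) and the highest for *Lamp2* (2717). With 1 liver of each genotype at 2.5 months and 1 liver at 2 months, age and other differences between mice cannot be told apart, and no test was made.

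**Figure D5:**
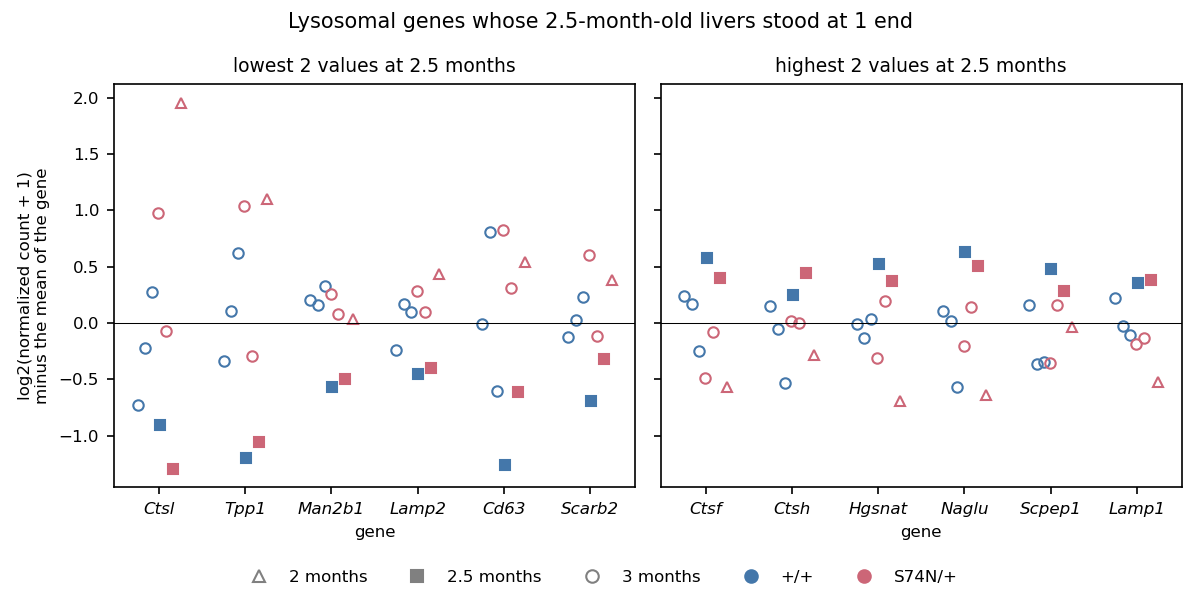
Log2(normalized count + 1) minus the mean of the gene over 8 livers, for the 12 lysosomal genes whose 2.5-month-old livers (filled squares, 1 of each genotype) were the lowest (left) or the highest (right) of the 8. Open circles are 3-month-old and open triangles 2-month-old livers, blue for Rragc +/+ and red for Rragc S74N/+.

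Genes on the study's lists of TFEB targets were read separately, because RagC acts on this factor. On the CLEAR-network list were 11 of the 45 genes, of which 10 were tested, with 4 positive and 6 negative values and a median log2 fold change of -0.16. *Ctsa* had the lowest value among them (-0.42) and *Cd63* the highest (0.53). The summed level of the 11 genes was 8380 to 11770 in Rragc +/+ and 7967 to 11020 in Rragc S74N/+ livers, so the groups overlapped. Most of this sum was *Lamp1* and *Ctsd*, at means of 4414 and 2424 over all livers, so it says little about the others. On a shorter list were *Ctsd*, *Ctsf*, *Tpp1*, *Hexa* and *Sgsh*, with 1 positive and 4 negative values and a median of -0.28. The 34 tested genes outside the CLEAR-network list, among them *Sgsh* at -1.14, had a median of 0.05. The factors themselves had log2 fold changes of -0.81 (*Tfeb*, SE 0.30), -0.46 (*Tfe3*, SE 0.26) and -0.02 (*Mitf*, SE 0.32), each with a limma adjusted p of 0.846 or more. *Tfeb* was at 44.9 to 88.6 normalized counts in Rragc +/+ and 27.9 to 43.5 in Rragc S74N/+ livers, so its groups did not overlap (limma unadjusted p = 0.0181).

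Other genes of lysosome function were counted in the same way, and none of these lists held a called gene. Of 24 further hydrolases and cofactors tested, 14 were positive and 10 negative (median 0.09), from *Hyal1*, a hyaluronidase, at -0.49 to *Rnaset2b*, a ribonuclease, at 2.24, which had a standard error of 1.21. Of 16 genes for delivery of enzymes, 9 were positive and 7 negative (median 0.13). They ran from *Sumf1*, the enzyme that activates all sulfatases, at -0.70 (SE 0.29, limma unadjusted p = 0.0308, adjusted p = 0.846) to *M6pr*, a mannose 6-phosphate receptor, at 0.65 (SE 0.33). Of 14 other membrane proteins, 5 were positive and 9 negative (median -0.13), from *Mcoln1*, a calcium channel, at -0.73 to *Glmp*, the partner of a lysosomal transporter, at 0.57. Of 15 subunits and accessory proteins of the vacuolar ATPase, which acidifies the lysosome, 10 were positive and 5 negative (median 0.02), from *Atp6ap1* at -0.68 to *Atp6v1h* at 0.72.

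The edited gene and markers of other cells were read in the same livers. *Rragc* was at 84.1 ± 20.4 and 76.6 ± 7.32 (SD, n = 4 each), which a substitution need not alter, so it does not check the labels. Hepatocyte markers were abundant in every liver, with a sum of 251600 to 349900 in Rragc +/+ and 272900 to 456700 in Rragc S74N/+. Of 9 tested, 6 were positive and 3 negative, from *Apob* at -0.56 to *Pck1* at 1.18 (limma unadjusted p = 0.0207, adjusted p = 0.846). Of 9 sinusoidal endothelium markers, 5 were positive and 4 negative, from *Stab1* at -0.27 to *Lyve1* at 1.03, and their sums overlapped. *Lyve1* and *Pecam1* (0.88) had unadjusted limma p values of 0.0169 and 0.0151 (adjusted p = 0.846). Of 8 kidney tubule markers 5 were listed, with a sum of 214 to 373 in Rragc +/+ and 57.9 to 103 in Rragc S74N/+ livers, and *Umod*, *Slc22a6* and *Cdh16* were not listed. *Gpx3* of this list was the 1 gene called (log2 fold change -1.95, limma adjusted p = 0.0411). Most of the kidney sum was *Gpx3* (mean 166 in Rragc +/+ and 42.4 in Rragc S74N/+) and *Kap* (95.7 and 24.6). *Miox* was also lower (12.6 and 1.8), while *Slc34a1* (8.17 and 8.90) and *Slc12a1* (2.46 and 2.53) were not. Because the kidney sum was lower in all Rragc S74N/+ livers, as were *Ctsa* and *Acp2*, it is given beside them, and its part in their values was not tested. The 8 markers of B and plasma cells also had sums that did not overlap, 86.0 to 157 in Rragc +/+ and 199.5 to 300.2 in Rragc S74N/+ livers. Most of the gap between these sums was *Igkc*, at means of 57.1 and 141. Only 2 of the 8 markers were high enough to be tested. *Cd79b* (9.84 and 8.50) and *Mzb1* (6.2 and 5.8) had lower means in Rragc S74N/+ livers, and the rest had higher ones. *Igkc* had a log2 fold change of 1.31 (limma unadjusted p = 0.000253, adjusted p = 0.846), and DESeq2 called 1 of the list. Of the 8 stellate cell markers 6 were tested, with 1 positive and 5 negative values, and the sums of the 8 overlapped. *Colec11* and *Ecm1* were lower in every Rragc S74N/+ than in any Rragc +/+ liver, at log2 fold changes of -0.27 and -0.65. *Lrat* (-0.02) and *Reln* (0.02) were near even, and *Pdgfrb*, too low to be tested, had a higher mean in Rragc S74N/+ livers (4.92 and 10.4). The part of these cells in the lysosomal values was not tested either.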

How the data were processed

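RNA of 8 whole livers, 4 Rragc S74N/+ and 4 Rragc +/+, was profiled with a QuantSeq 3′ kit that marks strand. Per the labels and methods, the authors checked reads with FastQC 0.11.7, aligned them to GRCm38 with TopHat2 2.0.10, Bowtie 1.0.0 and SAMtools 0.1.19, counted them by gene and strand with HTSeq 0.6.1 and a GENCODE annotation, and normalized them with DESeq. The deposited signal is 1 normalized count per gene and liver for 14506 genes. All values (100%) were whole multiples of the liver's step within 0.01, so whole reads were recovered, 4313076 to 6632108 per liver in listed genes. No molecular identifiers are stated for liver, and reads are not independent molecules.

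The members and lists were chosen with earlier results of these data known. Groups were taken from the labels, which do not give sex. Tests used limma 3.58.1 in R 4.3.3 (empirical Bayes with a trend) on log2(normalized count + 1). The 11174 genes that averaged 10 or more were tested, with no term besides genotype, and p was adjusted over all of them by Benjamini-Hochberg (threshold 0.05). This scale understates changes of low genes. p-values measure the spread between these samples. On the recovered reads, edgeR 4.0.16 called 1 gene and DESeq2 1.42.0 called 10. Scripts were tested on simulated data. Other settings were TMM rescaling, pseudocounts of 0.1 and 5, a filter at 50 or none, no trend, 3-month-old mice alone, age as a covariate, and leaving out each liver. Age as a factor and leaving out the 2.5-month-old mice were added after the data were seen.

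Genes with values in every liver were those that did not overlap between genotypes, had an unadjusted p under 0.05, or had the highest level or the largest positive or negative difference in their role. *Gla* and *Ctsl* were added after their values were seen. In other lists the extremes were named. Gene positions are from GENCODE M21 and promoters from RefSeq, both on GRCm38. Same-strand exons overlap *Ctsd*, *Ctsl*, *Ppt2* and *Glb1*, whose counts are less certain.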

Additional observations from a re-analysis of the deposited data

Results flagged for a closer look

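In 5 of 92 groups of 4 livers, 1 liver stood apart from the 3 others by Dixon's test at the 95% level, where chance flags about 1 in 20 groups, or 4.6 here. All 5 were among the Rragc S74N/+ livers, and values are log2(normalized count + 1). *Ctsz*, a carboxypeptidase, was at 8.44 in replicate 4 (347 normalized counts) and at 284 to 294 normalized counts in the other 3 livers of this genotype. The Rragc +/+ livers, at 259 to 386, lay on both sides of replicate 4. *Glb1*, β-galactosidase, was at 4.30 in replicate 2 (18.7 normalized counts), where the others had 34.5 to 37.6. *Arsb* was at 4.05 in replicate 3 (15.6 against 42.4 to 48.9 normalized counts). *Fuca1* was at 9.06 in replicate 3 (533 against 365 to 388 normalized counts). The mean log2 level of the tested lysosomal genes was 7.41 in replicate 3 and 7.62 to 7.66 in the other 3 livers. Replicate 3 was the only 2.5-month-old Rragc S74N/+ mouse, and the cause was not tested.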

How the results depend on the processing

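The count of lysosomal genes called was 0 under every setting tried, including edgeR, DESeq2 and each fit that left out a liver. The count over all genes, 1, became 0 without the trend, with age as a covariate, with 3-month-old mice alone or without the 2.5-month-old mice, 3 with age as a factor, 10 with DESeq2, and 0 to 2 when each liver was left out. It was 2 without Rragc S74N/+ replicate 3 and 0 without any other liver. The median log2 fold change of the lysosomal genes, -0.001, moved to 0.089 in 3-month-old mice alone, and leaving out livers moved it less. *Ctsd* changed sign to 0.093 in 3-month-old mice alone and ranged from -0.355 to 0.047 when each liver was left out, and *Ctsh* from -0.073 to 0.198. Refits covered all tested genes, but changes across every setting were followed only for the 22 genes named by rule. Of these, the 20 besides *Ctsd* and *Ctsh* kept their sign in every setting that gave a value. Leaving out 1 liver moved *Tpp1* to between 0.065 (without Rragc +/+ replicate 4) and 0.815 (without Rragc S74N/+ replicate 3), *Cd63* to between 0.202 and 0.891 (without Rragc +/+ replicates 4 and 2), *Galc* to between 0.175 and 0.857 and *Arsb* to between 0.308 and 0.904 (without Rragc +/+ replicate 3 and Rragc S74N/+ replicate 3), and *Hgsnat* to between -0.377 and -0.020 and *Lamp1* to between -0.393 and -0.091 (without Rragc S74N/+ replicates 3 and 4). *Psap* ranged from 0.062 to 0.374 (without Rragc +/+ replicates 3 and 2), *Ctsf* from -0.564 to -0.239 (without Rragc S74N/+ replicate 3 and Rragc +/+ replicate 4), and *Acp5* from -0.230 to -0.030 (without Rragc +/+ replicates 3 and 2). The lowest values of *Aga*, *Ppt2* and *Asah1* in size were 0.448, 0.352 and -0.227, without Rragc S74N/+ replicate 4, Rragc +/+ replicate 1 and Rragc S74N/+ replicate 1. In 3-month-old mice alone *Sgsh* was at -0.577 and *Manba* at -0.209. *Acp2*, *Ctsa*, *Ctsc*, *Fuca1*, *Gm2a* and *Lgmn* moved by less than 1.5 times in all these refits. No adjusted p of the 22 genes passed the threshold (lowest 0.256). *Neu1*, outside the 22, was at 0.005 with limma, -0.003 with edgeR and -0.008 with DESeq2. The difference in mean level, 0.047, ranged from 0.006 to 0.106 when each liver was left out, and was 0.119 in 3-month-old mice alone, 0.110 without the 2.5-month-old mice and 0.017 without a filter. The number of lysosomal genes at an unadjusted p under 0.05 was 4 where 5.17% of all tested genes were under it. Without Rragc S74N/+ replicate 3 it was 10 (15.1% of all tested genes), and without the 2.5-month-old mice 9 (10.7% of all). It was 6 without Rragc +/+ replicate 3 (6.79%), with edgeR (5.53%), with DESeq2 (6.01%) or without a filter (5.43%). It was 5 in 3-month-old mice alone (5.74%) and without Rragc +/+ replicate 2 (5.41%). Pseudocounts of 0.1 (5.07%) and 5 (5.32%) and a filter at 50 (5.16%) gave 4. TMM rescaling (5.14%), no trend (5.4%), age as a covariate (3.71%) or factor (5.66%), and leaving out Rragc +/+ replicate 4 (3.9%) gave 3. It was 2 without Rragc S74N/+ replicate 2 (4.88%) or 4 (2.82%), and 1 without Rragc +/+ replicate 1 (3%) or Rragc S74N/+ replicate 1 (3.88%). *Ctsc* was among them in every setting. The mean level per liver does not depend on the trend, on the age terms or on the count tools, which gave no value for it. No paired analysis was possible because labels do not pair mice across genotypes. Depth limits the low genes most, with *Gla* at 2 to 21 and *Sgsh* at 4 to 35 reads per liver. The causes of these shifts were not tested.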
